A study of Mus musculus with 23 samples.

Results

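The fibrillar collagen genes Col1a1, Col1a2, Col3a1, Col5a1, Col5a2 and Col5a3 were followed in the quadriceps muscle of 23 mice. These 6 genes were selected by name out of 55573 Ensembl entries that the count table holds, on a list drawn up when levels and changes of the genes in these same mice were already known. All 6 were among the 13049 genes with enough reads to be tested. Because measured values chose the list, the changes of the 6 genes are described below without p-values. Pdgfra, the receptor gene that marks fibroblasts in muscle, served as a gauge of the cells that make most fibrillar collagen.

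RNA sequencing compared vehicle with corticosterone, the main glucocorticoid hormone of mice, in both sexes of C57Bl6 mice (C57BL/6J in the study's methods) aged 8 to 10 weeks. Male_VEH and Female_VEH (6 mice each) carried a vehicle pellet of 100 mg cholesterol under the skin of the neck, and Male_CORT (6 mice) and Female_CORT (5 mice) one in which 50 mg of the cholesterol was replaced by 50 mg corticosterone. All mice kept the pellet for 14 days and were fasted for 5 hours before the muscle was taken. No transgene or deletion is given for any group. Mice are named by sex and number below. The sources do not say whether males and females were processed together, so that sex and a batch of processing cannot be told apart.

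Fibrillar collagens are secreted as procollagen chains that wind into long helices, lose their end pieces outside the cell and pack side by side into fibrils. Type I collagen (Col1a1 and Col1a2) forms thick and stiff fibrils, type III collagen (Col3a1) thinner and more pliable ones, and type V collagen (Col5a1, Col5a2 and Col5a3) sits inside type I fibrils and controls how they start and how thick they grow. In skeletal muscle these fibrils make up much of the connective tissue around fibers and bundles, they are made mainly by fibroblasts, and glucocorticoids are known to lower collagen synthesis in skin and other tissues.

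In GRCm38 (mm10) coordinates with GENCODE M21 annotation, all 6 are protein-coding genes. Col3a1 (chr1:45311538-45349706, plus strand) and Col5a2 (chr1:45374321-45503282, minus strand) are neighbours that run towards each other with 24.6 kb between them. Col1a1 lies at chr11:94936224-94953042, Col1a2 at chr6:4504814-4541544 and Col5a1 at chr2:27886425-28039514, all on the plus strand, and Col5a3 lies at chr9:20770050-20815067 on the minus strand. RefSeq promoter sequences (GRCm38.p6) were at hand for 4 of the 6 genes, Col1a2, Col3a1, Col5a1 and Col5a3. The 250 bases before the start of Col3a1 (chr1:45311288-45311537, plus), Col5a1 (chr2:27886175-27886424, plus) and Col5a3 (chr9:20815068-20815317, minus) are shown, since Col3a1 had the largest and Col5a3 the smallest change in males. Each reads 5′ to 3′ towards the gene, and capitals mark, on either strand, motifs known from other genes: the box spelled CCAAT, the GC box spelled GGGCGG, the TATA box spelled TATAAA, and a half-site of the glucocorticoid receptor spelled AGAACA. No match overlapped another. Matches are of letters anywhere in the window, and whether they lie at the distance from the start where such a box works was not tested.
Col3a1: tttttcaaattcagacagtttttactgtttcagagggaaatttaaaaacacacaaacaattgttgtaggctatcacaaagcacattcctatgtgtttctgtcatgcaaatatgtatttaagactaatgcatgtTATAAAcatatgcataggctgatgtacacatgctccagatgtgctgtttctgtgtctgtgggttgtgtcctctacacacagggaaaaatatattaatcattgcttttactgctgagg
Col5a1: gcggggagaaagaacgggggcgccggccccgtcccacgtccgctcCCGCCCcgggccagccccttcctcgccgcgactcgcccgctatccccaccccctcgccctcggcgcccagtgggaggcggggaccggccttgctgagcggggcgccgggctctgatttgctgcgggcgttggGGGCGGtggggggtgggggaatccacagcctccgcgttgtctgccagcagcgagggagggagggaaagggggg
Col5a3: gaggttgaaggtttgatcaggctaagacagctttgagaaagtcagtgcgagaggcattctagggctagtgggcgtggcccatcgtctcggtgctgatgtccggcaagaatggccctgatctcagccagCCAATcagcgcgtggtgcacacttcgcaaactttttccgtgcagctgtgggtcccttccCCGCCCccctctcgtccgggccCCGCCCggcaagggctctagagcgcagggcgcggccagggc
The Col3a1 window held 1 TATAAA, a motif present in 12.4% of the 32851 RefSeq promoter windows of that length, and no GGGCGG. Col5a1 and Col5a3 held 2 GGGCGG each, and so did Col1a2, against 32.7% of all windows with at least 1. CCAAT stood once each in Col1a2 and Col5a3 (33.8% of all windows). The short SMAD-binding element spelled CAGAC, left in lower case, occurred 2 times in Col3a1, 1 time each in Col1a2 and Col5a1 and not in Col5a3 (42.2% of all windows). AGAACA was in none of the 4 windows (16.1% of all windows), which says only that these letters are missing there.

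The counts were deep and even. Each mouse had 20904150 to 21984477 read pairs on genes, and the 6 genes had 121 to 16639 of them per mouse. Levels are given as read pairs on a gene scaled to library size, in counts per 1000000 read pairs on genes (CPM), scaled between mice by TMM. Muscle fiber markers fitted the tissue label, with Acta1 (skeletal actin) at 24200 to 55500 CPM and a summed level of 6 fiber markers between 67200 (F10) and 178000 CPM (M4). Markers of other tissues stood out in some libraries, and where these reads came from was not tested. Alb (liver albumin) was above 800 CPM in M8 (1830), F10 (1880), M9 (1110), M12 (1080) and F6 (822) and between 9.76 and 224 elsewhere. Tnmd (tenomodulin, a tendon gene) was above 20 CPM in M7, M11, F7 and F11, all vehicle-treated, and at most 9.44 elsewhere. Adipoq (adiponectin, from fat cells) ranged from 4.45 to 626 CPM.

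Corticosterone-treated males had much lower fibrillar collagen transcripts than vehicle-treated males. The summed level of the 6 genes was 808 ± 79.9 CPM (SD, n = 6) in Male_VEH and 105 ± 27.1 CPM (n = 6) in Male_CORT. Col3a1 had the largest difference, 15.5-fold, followed by Col1a1 (9.57-fold), Col1a2 (8.24-fold), Col5a1 (3.53-fold), Col5a2 (3.41-fold) and Col5a3 (2.17-fold). In females the summed level was 911 ± 367 CPM (n = 6) with vehicle and 469 ± 201 CPM (n = 5) with corticosterone. In bulk tissue, fewer collagen-making cells and less collagen RNA per cell cannot be told apart.

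**Figure D1:**
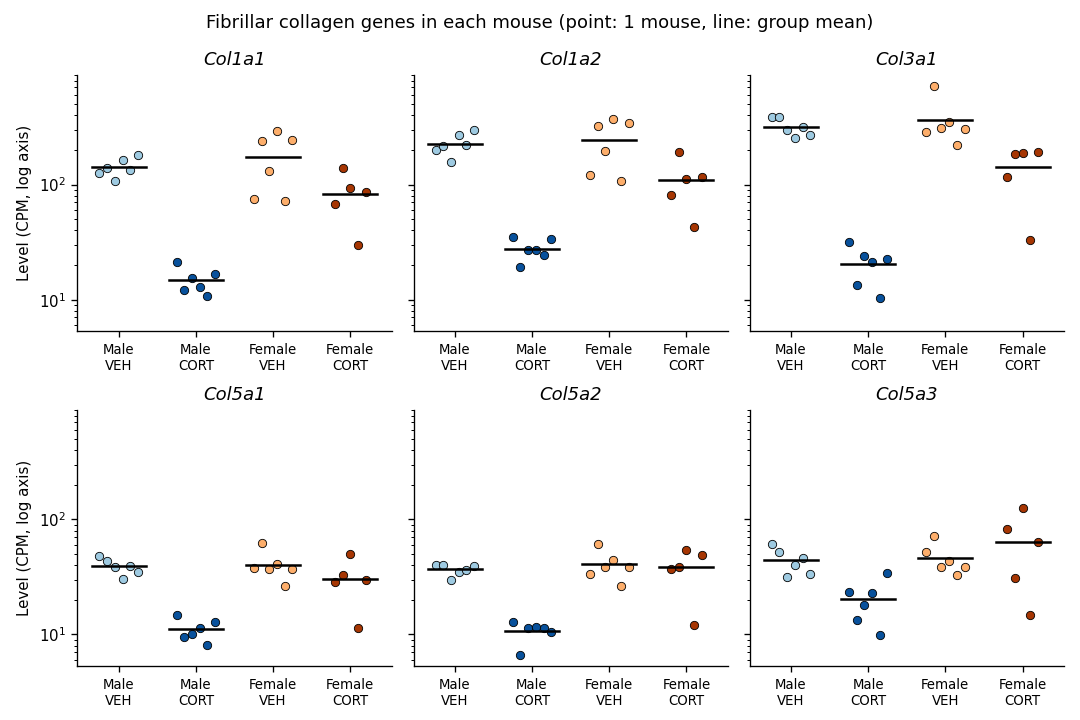
Level of each fibrillar collagen gene in each mouse, in CPM on a log axis, by group (6, 6, 6 and 5 mice), with a line at the group mean. For every gene except Col5a3 the 6 corticosterone-treated males lie below all vehicle-treated males, while the female groups overlap for every gene except Col3a1.

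Col3a1 encodes the chain of type III collagen. Its level in Male_VEH ran from 256 (M7) through a median of 307.5 to 385 CPM (M1), and in Male_CORT from 10.3 (M10) through 21.8 to 31.6 CPM (M2). The groups were far apart, with a log2 fold change (log2FC) of -3.96 (SE 0.38). In Female_VEH it ran from 220.5 (F9) through 307 to 714 CPM (F3). The Female_CORT mice had 116 (F2), 186 (F4), 190 (F6), 33.3 (F8) and 193 CPM (F10). All 5 lay below the lowest vehicle-treated female, with F4, F6 and F10 close together, F2 lower and F8 far below, and the log2FC was -1.34 (SE 0.36).

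Col1a1 encodes the major chain of type I collagen. It was between 108 (M5) and 179.6 CPM (M11) in Male_VEH, with a median of 137, and between 10.7 (M10) and 21.3 CPM (M2) in Male_CORT, with a median of 14.2. The log2FC in males was -3.26 (SE 0.36), with no overlap. Vehicle-treated females spread over a wider range, from 72.0 (F9) through a median of 186 to 291 CPM (F7). Corticosterone-treated females had 68.0 (F2), 139 (F4), 92.9 (F6), 29.6 (F8) and 86.4 CPM (F10), so that the groups overlapped and only F2 and F8 lay below every vehicle-treated female. The log2FC in females was -1.08 (SE 0.35).

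Col1a2 encodes the other type I chain. Male_VEH mice had 157 (M5) to 300.0 CPM (M11), median 219, and Male_CORT mice 19.3 (M4) to 34.9 CPM (M2), median 26.8. The groups did not overlap, and the log2FC was -3.04 (SE 0.33). Female_VEH mice had 108 (F9) to 372 CPM (F7), median 259, while Female_CORT mice had 81.5 (F2), 192.5 (F4), 112.5 (F6), 43.1 (F8) and 117.5 CPM (F10). Again F2 and F8 alone lay below all vehicle-treated females, and the log2FC was -1.15 (SE 0.33). The 4 vehicle-treated mice with Tnmd above 20 CPM held the highest 2 values of Col1a2 in each sex, but not those of Col3a1, for which M7 and M11 were the lowest of the vehicle-treated males. The part of tendon in these levels was not tested.

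Col5a1 encodes a chain found in most type V collagen. Its level in males was 30.5 (M7) to 48.2 CPM (M1) with vehicle, median 39.0, and 8.16 (M10) to 14.8 CPM (M2) with corticosterone, median 10.8. The log2FC was -1.82 (SE 0.25), without overlap. In females it was 26.2 (F9) to 62.2 CPM (F3) with vehicle, median 37.6, against 28.7 (F2), 32.8 (F4), 49.6 (F6), 11.4 (F8) and 29.7 CPM (F10) with corticosterone. Only F8 lay below the vehicle-treated females, and the log2FC was -0.40 (SE 0.25).

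Col5a2 encodes the partner chain of Col5a1. Male_VEH mice had 29.5 (M5) to 40.5 CPM (M3), median 37.7, and Male_CORT mice 6.69 (M4) to 12.8 CPM (M2), median 11.4. The log2FC was -1.77 (SE 0.25), without overlap. Female_VEH mice had 26.6 (F9) to 61.3 CPM (F3), median 38.5, and Female_CORT mice 37.2 (F2), 38.8 (F4), 54.5 (F6), 12.1 (F8) and 49.2 CPM (F10). Except for F8 the treated females lay within the vehicle range, and the log2FC was -0.08 (SE 0.25).

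Col5a3 encodes a less common type V chain. In males it ran from 31.5 (M5) through 43.4 to 60.8 CPM (M1) with vehicle and from 9.82 (M10) through 20.5 to 34.4 CPM (M12) with corticosterone. M12 lay inside the vehicle range and the other 5 treated males below it, and the log2FC was -1.12 (SE 0.37). Vehicle-treated females had 33.0 (F9) to 72.2 CPM (F3), median 41.1. Treated females had 81.8 (F2), 30.9 (F4), 127 (F6), 14.7 (F8) and 64.1 CPM (F10), both above and below the vehicle range, with a log2FC of 0.46 (SE 0.38). In these 5 mice Adipoq was at 366, 126, 626, 5.95 and 368 CPM in the same order, so that F6 was highest and F8 lowest in both genes. The part of fat tissue in the Col5a3 level was not tested. Without F6, the log2FC of Col5a3 in females was 0.03.

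The study called genes with DESeq2 at an adjusted p of 0.01, and its methods add a log2FC beyond 1 in either direction. Here that adjusted p was used with edgeR and no log2FC limit. By this threshold 5 of the 6 genes were called lower in males, all but Col5a3, where 13.1% of all 13049 tested genes were called lower. The same 5 had groups without overlap, as had 11.1% of all tested genes in that direction. In females 1 of 6, Col3a1, was called lower (6% of tested genes) and had groups without overlap (4.34%). The list was selected on such values, so nothing is read from these counts. The median log2FC of the 6 genes was -2.43 in males and -0.74 in females, while that of all tested genes was -0.02 and 0.04 and their lowest 1% began at -2.13 and -1.32. The 5 calls in males remained in each of 32 alternative fits, whereas the call of Col3a1 in females remained in 11 of 32 and was lost, for example, without F3, where its log2FC was -1.03. Col5a3 passed in males in 4 of the 32, with DESeq2, limma-voom, males fitted alone and without F8. DESeq2 thus called all 6 in males, and it called 3 in females. Some of the 32 leave out only a mouse of the other sex, which reaches a comparison within 1 sex only through shared spread and scaling.

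**Figure D2:**
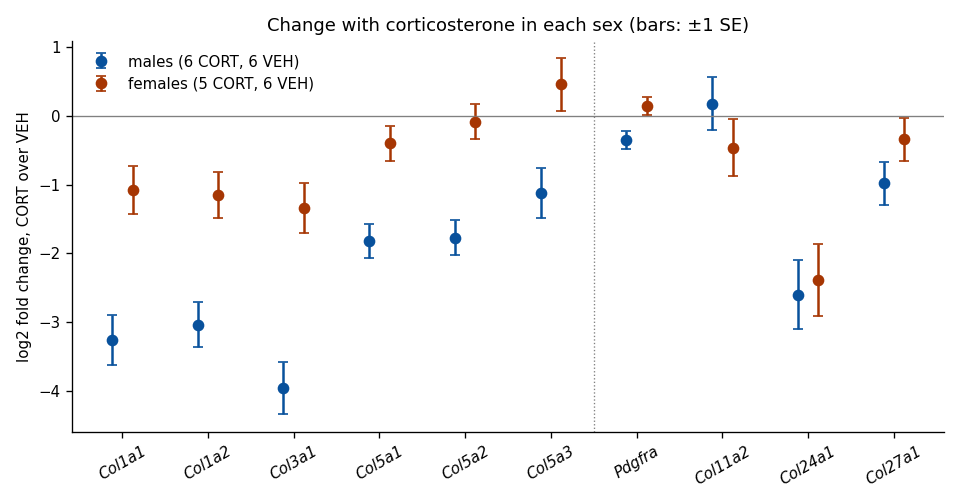
Log2 fold change upon corticosterone in males (6 against 6 mice) and females (5 against 6 mice), with bars of 1 SE, for the 6 fibrillar collagen genes, then right of the dotted line Pdgfra and the other tested fibrillar collagen genes. Among the 6 genes those of types I and III have the most negative values in both sexes and each gene is more negative in males, and Col24a1 is at about the same value in both.

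Vehicle-treated males and females had similar levels. The log2FC of males over females lay between -0.30 (SE 0.33) for Col1a1 and -0.04 (SE 0.24) for Col5a1, and none of the 6 was called by edgeR, had an unadjusted p under 0.05 or was called by DESeq2. Of all tested genes 0.268% were called lower and 0.69% higher in males, and 0.935% had lower males without overlap. Females varied more: the SD of Col1a1 with vehicle was 94.7 CPM in females and 25.6 CPM in males. F9 was the lowest vehicle-treated female for all 6 genes, F3 the highest for 4 and F7 for Col1a1 and Col1a2. F3 also had the highest summed levels among vehicle-treated females of fibroblast (2110 CPM), endothelial (469 CPM) and Schwann cell markers (204 CPM), whose part in its collagen level was not tested.

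With corticosterone, males were lower than females for all 6 genes, with log2FC from -1.45 (SE 0.25) for Col5a1 to -2.81 (SE 0.37) for Col3a1. All 6 were called lower in males, where 14% of tested genes were called lower and 9.31% higher. Only Col1a1, Col1a2 and Col3a1 had groups without overlap, as had 5.55% of tested genes with lower males. For the type V genes F8 lay among the treated males, at 11.4 CPM of Col5a1 against 8.16 to 14.8 CPM. Without the 5 mice that had over 800 CPM of Alb, 2 of the 6 genes were called, Col1a1 and Col3a1, while the median log2FC of the 6 was -1.71 against -1.91 with all mice.

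The change in males minus that in females, the interaction of sex and treatment, was negative for each gene: -2.61 (SE 0.49) for Col3a1, -2.18 (SE 0.48) for Col1a1, -1.89 (SE 0.45) for Col1a2, -1.69 (SE 0.35) for Col5a2, -1.57 (SE 0.53) for Col5a3 and -1.42 (SE 0.35) for Col5a1. Col3a1 was called, where 0.322% of tested genes were called with a lower and 0.368% with a higher value. This count rested on single mice: it was 6 without F8, 4 without F3 and 0 without M3, while the 6 values themselves stayed below 0 in all 32 alternative fits. F8 was the lowest treated female for all 6 genes. It also had the lowest Adipoq and the lowest summed levels among treated females of fibroblast (1160 CPM), macrophage (107 CPM) and Schwann cell markers (82.8 CPM), whose part in its collagen levels was not tested. Without F8, the log2FC in females was -0.86 for Col1a1, -0.95 for Col1a2, -0.19 for Col5a1, 0.15 for Col5a2 and 0.71 for Col5a3.

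The make-up of the collagen transcripts differed between groups as well. Levels were compared between genes per kb of summed exon length, which ranged from 6.56 kb for Col1a1 to 12.4 kb for Col1a2. In vehicle-treated mice of both sexes the order was Col3a1, Col1a1, Col1a2, Col5a3, Col5a1 and Col5a2, from 32.4 ± 5.63 to 3.83 ± 0.44 CPM per kb in males and from 37.1 ± 18.0 to 4.23 ± 1.23 in females (SD, n = 6). Within each vehicle-treated male the order held at every step except between Col5a1 and Col5a2 (5 of 6 mice), and among females at every step except between Col3a1 and Col1a1 (4 of 6 mice). In Male_CORT Col5a3 came first at 2.99 ± 1.28 CPM per kb, and Col1a1 (2.27 ± 0.59), Col1a2 (2.22 ± 0.47) and Col3a1 (2.09 ± 0.78) were within each other's spread. That first place depends on the exon lengths used. Not divided by length, Male_CORT had 27.6 CPM of Col1a2, 20.5 of Col3a1, 20.3 of Col5a3 and 14.9 of Col1a1. The shares given below depend on the same lengths. In Female_CORT Col3a1 (14.6 ± 7.08), Col1a1 (12.7 ± 6.07), Col5a3 (9.35 ± 6.47) and Col1a2 (8.81 ± 4.44) overlapped widely (n = 5).

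The type V genes together made up 17.1% ± 2.07 (SD) of the summed level per kb in Male_VEH and 45% ± 3.61 in Male_CORT. Every treated male (41.4% to 50.4%) was above every vehicle-treated male (14.3% to 20.1%). In females the share was 17% ± 4.37 with vehicle and 31.9% ± 9.42 with corticosterone, and the ranges (12.7% to 23.7% and 18.3% to 41.4%) overlapped. The share of Col3a1 was 37.2% ± 5.71 in Male_VEH, 17% ± 3.01 in Male_CORT, 38% ± 7.85 in Female_VEH and 26.5% ± 4.26 in Female_CORT. The log2 ratio of Col3a1 to its genomic neighbour Col5a2 per kb was 3.07 ± 0.22 in both vehicle groups, 0.83 ± 0.51 in Male_CORT and 1.79 ± 0.31 in Female_CORT, with every treated mouse below all vehicle-treated mice of its sex. The ratio of the type I chains, Col1a1 over Col1a2, moved less and in opposite directions, from 0.25 ± 0.07 to 0.02 ± 0.21 in males and from 0.40 ± 0.12 to 0.52 ± 0.12 in females, with overlap in both. These ratios follow from the values that were known when the genes were chosen and are a description.

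**Figure D3:**
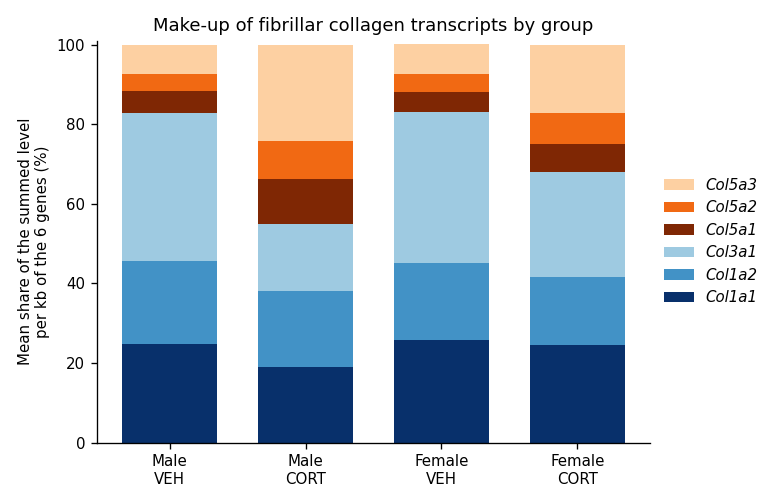
Mean share of each gene in the summed level per kb of exon of the 6 fibrillar collagen genes, by group (6, 6, 6 and 5 mice). The blue parts are types I and III and the brown to orange parts are type V, which hold 17.1%, 45%, 17% and 31.9% from left to right.

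The log2FC of Pdgfra upon corticosterone was nearer 0 than that of each collagen gene in males, and than that of each except Col5a2 in females. It was at 23.4 (M7) to 37.5 CPM (M3) in Male_VEH, median 30.3, and at 19.8 (M4) to 25.9 CPM (M8) in Male_CORT, median 24.8, which overlapped, with a log2FC of -0.35 (SE 0.13) that did not pass the threshold (edgeR, adjusted p = 0.0337). In Female_VEH it was at 26.8 (F9) to 38.5 CPM (F1), median 30.4, and in Female_CORT at 33.6 (F2), 45.2 (F4), 35.3 (F6), 27.9 (F8) and 34.2 CPM (F10), with a log2FC of 0.15 (SE 0.13, edgeR, adjusted p = 0.439). Between corticosterone-treated males and females Pdgfra was called lower in males (log2FC -0.56, SE 0.13, edgeR, adjusted p = 0.00261). Its interaction of sex and treatment did not pass (-0.49, SE 0.18, edgeR, adjusted p = 0.0732).

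Measured against Pdgfra in the same mouse, the mean log2 CPM of the 6 collagen genes stood at 1.62 ± 0.18 (SD) in Male_VEH and at -0.58 ± 0.33 in Male_CORT. All treated males lay between -1.06 and -0.20 and all vehicle-treated males between 1.43 and 1.92. In females the values were 1.60 ± 0.48 with vehicle and 0.75 ± 0.70 with corticosterone, where F2 had 0.88, F4 0.75, F6 1.41, F8 -0.41 and F10 1.14. The female ranges overlapped. The difference upon corticosterone was -2.20 (SE 0.15) in males and -0.84 (SE 0.37) in females. By gene it ran from -3.70 (SE 0.23) for Col3a1 to -0.86 (SE 0.28) for Col5a3 in males, and from -1.62 (SE 0.46) for Col3a1 to 0.01 (SE 0.54) for Col5a3 in females, in whom Col3a1 alone had groups without overlap. Not measured against Pdgfra, 4.34% of all tested genes had lower treated females without overlap. The share against Pdgfra was not computed, and nothing is read from this separation.

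**Figure D4:**
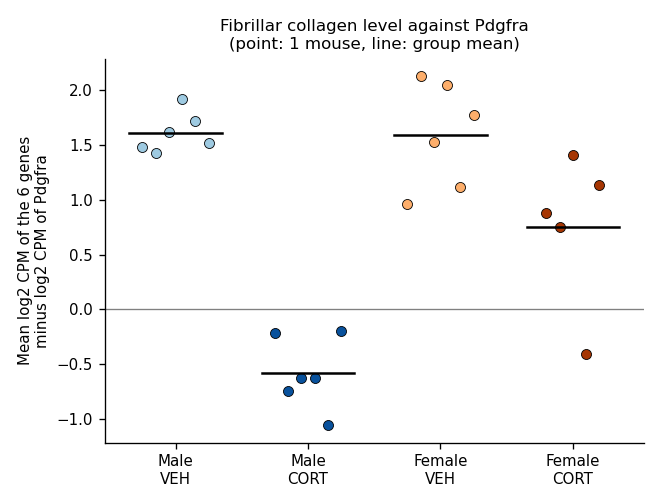
Mean log2 CPM of the 6 fibrillar collagen genes minus log2 CPM of Pdgfra in each mouse, with a line at the group mean. Vehicle-treated mice of both sexes lie between 0.96 and 2.13, treated males between -1.06 and -0.20, and among treated females F8 alone is below 0.

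Most other fibroblast markers were lower in treated males. This list and those below were chosen with earlier results of these data known. Their counts beside the shares of all tested genes, and the adjusted p-values of their genes, are thus a description and no support. Over all tested genes 13.1% were called lower and 13.2% higher in males, and 6% lower in females. Of 12 fibroblast markers, Pdgfra included, 9 were called lower in males and none higher (median log2FC -1.28). In females 3 of the 12 were called lower, Clec3b, Smoc2 and Thy1 (median -0.24). Of the 5 with the highest levels, Smoc2 (-1.26, SE 0.16), Cd34 (-1.20, SE 0.15) and Dpt (-1.20, SE 0.25), genes of the fibroblast surface and matrix, fell in males, while Gsn had a log2FC of -0.31 (SE 0.19) and Ly6a of -0.55 (SE 0.17). Ly6a passed in males with DESeq2, limma-voom, males fitted alone and without M9. The summed level of the 12 ranged from 1270 to 2050 CPM in Male_VEH and from 833 to 1320 CPM in Male_CORT, and from 1400 to 2110 CPM in Female_VEH and from 1160 to 2590 CPM in Female_CORT. With the mean of the other 11 markers in place of Pdgfra as gauge, the collagen difference was -1.07 in males and -0.29 in females. Mki67 and Top2a, genes of dividing cells, were both called lower in males, and neither in females by edgeR or DESeq2 or at an unadjusted p under 0.05 (-0.45, SE 0.55, and -0.36, SE 0.58). Their levels were low. Mki67 was at 0.895 ± 0.286 CPM in Male_VEH and 0.111 ± 0.136 CPM in Male_CORT, where the mean is under 3 reads per mouse, so that no fold is given. Top2a was at 1.15 ± 1.22 and 0.214 ± 0.152 CPM (log2FC -2.40, SE 0.67). The call of Mki67 was lost in 2 of 32 alternative fits and that of Top2a in 12.

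Of the 5 fibrillar collagen genes that were not on the list, Col24a1, a minor fibrillar collagen, was at 4.30 ± 2.67 CPM in Male_VEH and 0.701 ± 0.515 in Male_CORT. In females it was at 4.35 ± 1.79 with vehicle and 0.825 ± 0.481 with corticosterone. It fell in males (log2FC -2.60, SE 0.50, edgeR, adjusted p = 0.000335) and females (-2.39, SE 0.52, edgeR, adjusted p = 0.00228, a call lost in the 2 added fits without several mice), the difference between the sexes being -0.21 (SE 0.70, edgeR, adjusted p = 0.852). Col27a1 and Col11a2 did not pass in either sex with edgeR, with log2FC of -0.98 (SE 0.31) and 0.18 (SE 0.39) in males and -0.34 (SE 0.31) and -0.46 (SE 0.41) in females. Col27a1 passed in males with DESeq2 and without M3. The cartilage collagen genes Col2a1 and Col11a1 had too few reads to be tested.

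Collagen chains that do not form fibrils were split. The type VI genes, whose product is a beaded filament next to the fiber membrane, fell in both sexes: Col6a3 (log2FC -2.53, SE 0.22, edgeR, adjusted p = 5.74e-08 in males and -1.41, SE 0.22, edgeR, adjusted p = 0.000164 in females), Col6a2 (-2.27, SE 0.19 and -1.0, SE 0.19) and Col6a1 (-2.06, SE 0.19 and -0.74, SE 0.20). The call of Col6a1 in females was lost in 17 of 32 alternative fits. The basement membrane genes Col4a1 and Col4a2 did not pass in either sex with edgeR (-0.84, SE 0.27 and -0.79, SE 0.28 in males, 0.48, SE 0.28 and 0.47, SE 0.29 in females). In males both passed with limma-voom and with males fitted alone, and Col4a1 also with DESeq2 and without F3, F6 or F8. Of 6 tested genes of fibril-associated collagens, which decorate fibril surfaces, Col14a1, Col16a1 and Col9a1 were called lower in males and Col9a1 in females. Genes called lower made up 13.1% of all tested genes in males and 6% in females. The level of Col9a1 was low, at 0.98 ± 0.544 and 0.239 ± 0.208 CPM in males and 0.535 ± 0.276 and 0.0894 ± 0.0363 CPM in females. The Female_CORT mean is under 3 reads per mouse, so that no fold is given. Col14a1 was at 13.5 ± 6.64 CPM in Male_VEH and 2.0 ± 0.787 in Male_CORT (log2FC -2.74, SE 0.41, edgeR, adjusted p = 2.45e-05), but at 15.6 ± 9.76 and 12.6 ± 5.77 CPM in females (-0.31, SE 0.39).

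Genes that fold and modify procollagen inside the cell gave calls mainly in males. Of 15, 6 were called lower in males, against 13.1% of all tested genes, and none higher by edgeR (median -0.44). There 2 were higher at an unadjusted p under 0.05 and 1 was called higher by DESeq2. In females edgeR and DESeq2 called none lower, 2 were lower at an unadjusted p under 0.05, and 1, Plod3, was called higher (median 0.14). Of all tested genes 6% were called lower and 7.4% higher in females. Serpinh1, the collagen chaperone HSP47, was at 117 ± 18.5 CPM in Male_VEH and 40.4 ± 6.19 in Male_CORT (log2FC -1.53, SE 0.24, edgeR, adjusted p = 3.24e-05). In females it was at 117 ± 37.1 and 139 ± 58.8 CPM (0.25, SE 0.24). Plod3, a lysyl hydroxylase that also adds sugars to collagen, was at 23.7 ± 2.57 CPM in Female_VEH and 39.6 ± 14.4 in Female_CORT (log2FC 0.74, SE 0.16, edgeR, adjusted p = 0.00172). Sparc, a matrix protein that binds procollagen, was at 498 ± 68.7 and 314 ± 61.3 CPM in males (-0.67, SE 0.28) and 503 ± 169 and 805 ± 405 CPM in females (0.68, SE 0.29) and passed in neither with edgeR. It passed in males with limma-voom and with males fitted alone, and in females without F8. P4hb (0.24, SE 0.08) and P4ha1 (-0.14, SE 0.14), subunits of the enzyme that hydroxylates prolines of collagen, and Colgalt1 (-0.11, SE 0.07), which adds galactose to it, did not pass in males with edgeR. P4hb passed there with DESeq2, limma-voom, without M12 and without the 5 mice high in Alb. Serpinh1 and Crtap, part of the prolyl 3-hydroxylase complex, were called for the interaction, at -1.78 (SE 0.33) and -1.30 (SE 0.26), and the call of Serpinh1 was lost in 20 of 32 alternative fits.

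Enzymes that trim procollagen and crosslink fibrils outside the cell were mostly lower in males. None was called higher by edgeR, with 1 higher by DESeq2 and at an unadjusted p under 0.05. Against 13.1% of all tested genes, 7 of the 10 tested here were called lower (median -1.26). Pcolce, which enhances removal of the C-terminal end piece (-1.28, SE 0.15), Bmp1, the protease that removes it (-1.37, SE 0.18), Adamts2, which removes the N-terminal one (-1.06, SE 0.23), and Loxl1, a crosslinking enzyme (-1.77, SE 0.22), were among them. In females Loxl2, another crosslinking enzyme, was called lower, from 18.8 ± 6.16 to 6.79 ± 3.06 CPM (log2FC -1.47, SE 0.25, edgeR, adjusted p = 0.000285). Lox, the founding member of that family, went the other way and was called higher in females, from 7.75 ± 2.59 to 50 ± 26.9 CPM (2.69, SE 0.33, edgeR, adjusted p = 1.14e-05). In males Lox was at 12.1 ± 3.47 and 23.5 ± 6.35 CPM and missed the threshold (0.96, SE 0.30, edgeR, adjusted p = 0.0149). It passed in males with DESeq2, limma-voom, males fitted alone and without F6 or F8.

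Proteoglycans coat fibrils and set their spacing. In males Lum, Aspn and Podn of 9 were called lower and none higher (median -1.11), and in females Lum was called lower and Prelp higher (median 0.06). Over all tested genes 13.1% were called lower in males, and 6% lower and 7.4% higher in females. Lumican (Lum) went from 32.3 ± 5.56 to 8.60 ± 1.34 CPM in males (log2FC -1.91, SE 0.17, edgeR, adjusted p = 6.74e-08) and from 47.3 ± 9.74 to 24.1 ± 6.91 CPM in females (-0.98, SE 0.17, edgeR, adjusted p = 0.000434). Prelp went from 39.4 ± 8.47 to 107 ± 55.0 CPM in females (1.44, SE 0.31, edgeR, adjusted p = 0.00209), a call that was lost without F6. Decorin (Dcn), the most abundant of them at 432 ± 86.8 CPM in Male_VEH, was called in neither sex by edgeR (log2FC -0.41, SE 0.15 for males, 0.26, SE 0.15 for females), though in males it passed with limma-voom and without M5.

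Some collagen breakdown genes fell too. Of 9 tested, Mmp2, Mrc2, Ctsk and Timp2 were called lower in males (median -1.11), and the first 3 of these in females (median -0.29). None was called higher by edgeR, with 1 higher in each sex at an unadjusted p under 0.05 and 1 called higher by DESeq2 in males. Genes called lower made up 13.1% of all tested genes in males and 6% in females. Mmp2, a gelatinase, went from 62.4 ± 9.12 to 13.5 ± 1.88 CPM in males (log2FC -2.21, SE 0.21, edgeR, adjusted p = 1.1e-07) and from 63.9 ± 15.7 to 26.3 ± 11.7 CPM in females (-1.28, SE 0.22, edgeR, adjusted p = 0.000265). Cathepsin K (Ctsk), which cuts fibrillar collagen in acid, went from 8.74 ± 1.27 to 1.12 ± 0.248 CPM in males and from 8.67 ± 3.0 to 3.38 ± 1.43 CPM in females. Mrc2, an uptake receptor for collagen fragments, had log2FC of -1.21 (SE 0.14) and -0.60 (SE 0.14), and its call in females was lost without F2, F6 or F11. The inhibitor gene Timp3 did not pass with edgeR (0.40, SE 0.12 in males and 0.38, SE 0.13 in females). It was the gene called higher in males by DESeq2, and passed there also with limma-voom and without F4, M1 or M9, and in females without F4.

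Of 7 tested collagen receptor genes, Itga1, Itga2, Itga11 and Ddr2 were called lower in males (median -0.60), where 13.1% of all tested genes were called lower. In females none was called by edgeR or DESeq2 (median -0.14), and 1 was higher at an unadjusted p under 0.05. Ddr2, a kinase receptor for fibrillar collagen, changed by a log2FC of -1.13 (SE 0.19) in males, against -0.22 (SE 0.19) in females. Itga11, an integrin chain of fibroblasts, had -1.28 (SE 0.26) and -0.46 (SE 0.26). The call of Itga1 in males (-0.60, SE 0.15) was lost without M4, M7, M8 or M11, and the shared chain Itgb1 did not pass (-0.14, SE 0.09).

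TGF-beta is the best known inducer of collagen genes and acts through SMAD proteins. Of 12 genes of this list, Smad3 and Postn were called lower and Tgfb3, Tgfbr1 and Smad4 higher in males (median -0.08). In females Smad3 was called lower and none higher by edgeR or DESeq2 (median 0.22), with 2 higher at an unadjusted p under 0.05. Over all tested genes 13.1% were called lower and 13.2% higher in males, and 6% lower and 7.4% higher in females. The counts called lower are near those shares, and nothing is read from them, nor from the counts of the other lists. Smad3, which carries the signal to collagen promoters, went from 115 ± 19.5 to 46.0 ± 9.19 CPM in males (log2FC -1.33, SE 0.17, edgeR, adjusted p = 5.25e-06) and from 104 ± 25.7 to 46.7 ± 7.89 CPM in females (-1.15, SE 0.18, edgeR, adjusted p = 0.000168). The difference between the sexes for Smad3 was -0.17 (SE 0.25, edgeR, adjusted p = 0.655). Periostin (Postn), a matrix target of TGF-beta, went from 12.6 ± 3.85 to 2.85 ± 1.79 CPM in males (-2.14, SE 0.52, edgeR, adjusted p = 0.00253) and was at 24.8 ± 13.1 and 33.1 ± 24.4 CPM in females (0.42, SE 0.49). Smad4, the shared partner SMAD, rose in males (log2FC 0.66, SE 0.08) and stood at 0.07 (SE 0.08) in females.

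**Figure D5:**
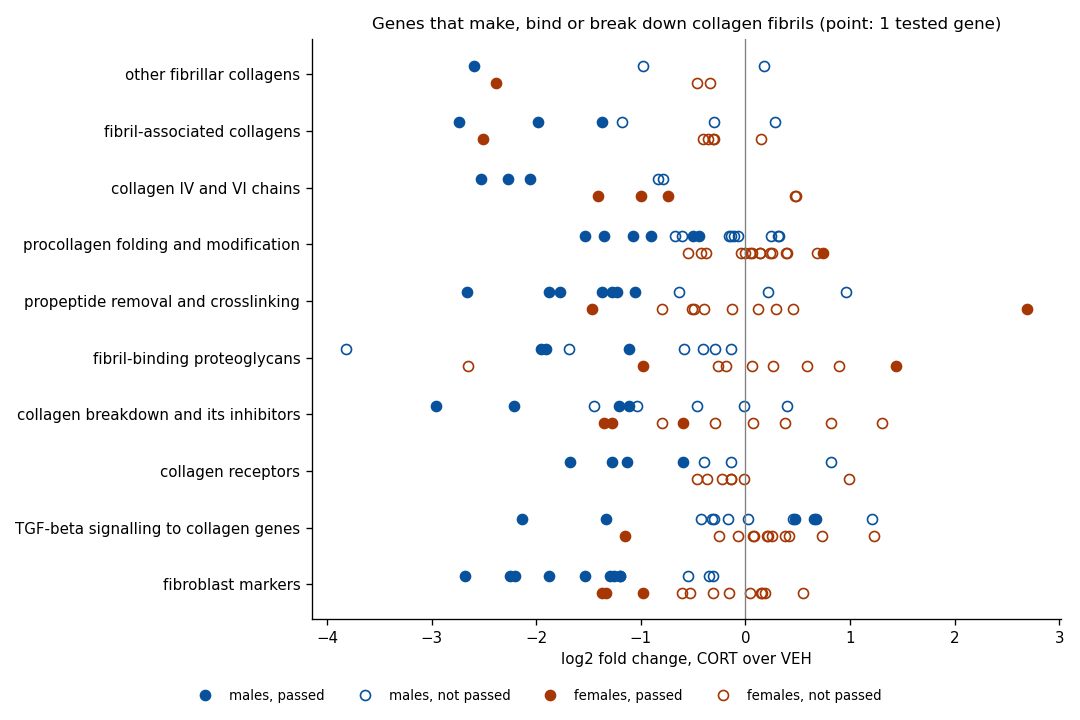
Log2 fold change upon corticosterone of each tested gene in the lists of genes that make, bind or break down collagen fibrils and of fibroblast markers, with males and females in separate rows. Filled points passed the threshold. In males the filled points lie mostly left of 0, with Tgfb3, Tgfbr1 and Smad4 to the right, and in females fewer are filled, with Lox (2.69), Prelp (1.44) and Plod3 (0.74) to the right.

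The genes whose levels ran most like the collagen genes from mouse to mouse were found after each group's mean was removed. Mean differences by treatment or sex thus did not enter, but uneven responses within a group could. All 23 mice were used, and these genes share libraries and scaling with the collagen values. The 10 with the highest Pearson correlation to the mean log2 CPM of the 6 genes were Col6a1 (r = 0.90), Col6a2 (0.87), Sparc (0.86), Vim (0.86), Ly6e (0.85), Camkk2 (0.85), Dock11 (0.84), Pcsk5 (0.84), Sntb2 (0.84) and Pxdn (0.84). Their Spearman correlations ran from 0.63 (Ly6e) to 0.85 (Col6a1). F8 lay far below the other treated females in that mean (4.40 against 5.95 to 6.55), and its weight in these values was not tested. Vim is the intermediate filament gene of fibroblasts and many other cells outside muscle fibers, and Pxdn crosslinks type IV collagen. Among the 6 themselves, Col3a1 was closest to their mean (0.94), then Col5a1 (0.93), Col5a2 (0.93), Col1a1 (0.85), Col1a2 (0.82) and Col5a3 (0.79), and each is part of that mean. Pdgfra was at 0.50. Several of the genes most alike within groups had log2FC of opposite sign in the sexes, such as Vim (-0.80, SE 0.27 in males and 1.02, SE 0.28 in females) and Pxdn (-1.21, SE 0.36 and 0.85, SE 0.36).

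Markers of other cell types were followed beside these results. Over all tested genes 13.1% were called lower and 13.2% higher in males, and 6% lower and 7.4% higher in females. None of 6 hepatocyte markers was called in either sex by edgeR or DESeq2 (1 was higher in females at an unadjusted p under 0.05), and their summed level ran from 15.4 to 1420 CPM in Male_VEH, 37.1 to 2420 in Male_CORT, 32.6 to 312 in Female_VEH and 39.6 to 2340 in Female_CORT. Of 7 adipocyte markers Plin4 was called higher in both sexes and Lep in females, and the summed level ran from 213 to 855 CPM in Male_VEH, 779 to 1080 in Male_CORT, 346 to 2020 in Female_VEH and 553 to 5000 in Female_CORT. Plin4 was the largest part of this sum in males, at a mean of 259 CPM with vehicle and 652 with corticosterone. The list was split in males, with 3 of 7 log2FC below 0 (median 0.26). Adipoq was at 49.8 and 39.1 CPM there and Cfd at 187 and 35.8 CPM. Of 5 tested tendon markers Scx was called higher in males (log2FC 1.51, SE 0.34), a call lost without the 4 mice high in Tnmd. None was called lower by edgeR or DESeq2 (1 at an unadjusted p under 0.05). Scx went against the rest of its list, of which 4 of 5 had a log2FC below 0 in males (median -1.39). In females 2 of 5 were below 0 (median 0.21). Summed tendon levels were 36.8 to 421 CPM in Male_VEH, 24.4 to 178 in Male_CORT, 23.3 to 418 in Female_VEH and 28.0 to 281 in Female_CORT. No macrophage, Schwann cell, pericyte or muscle fiber marker was called in either sex by edgeR, while DESeq2 called 1 macrophage marker lower in males and 2 higher in females. An unadjusted p under 0.05 was common among all genes. With edgeR scaled by the median of ratios, 6282 tested genes had it in males and 5011 in females, in either direction. At that level 3 macrophage markers were lower in males and 3 higher in females. Of Schwann cell, pericyte and muscle fiber markers, at most 2 of a list moved in a sex in 1 direction. At that level 6 of 7 adipocyte markers were higher and none lower in females (median log2FC 2.18). Endothelial markers gave 3 lower and none higher in males. Of the endothelial markers Tek was called lower in males (-0.52, SE 0.14), a call lost in 12 of 32 alternative fits. Without the 4 mice high in Tnmd, or without the 5 high in Alb, the 5 collagen calls in males remained and the call of Col3a1 in females was lost, at a log2FC of -1.42 and -1.73 against -1.34 with all mice. The part of these cell types in the collagen results was not tested further.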

How the data were processed

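Stranded mRNA libraries of the quadriceps of 23 mice were sequenced in pairs of reads. The authors aligned them to mm10 with STAR 2.7.3a, counted by strand with HTSeq 0.12.4 on Ensembl release 97, and deposited counts per gene and mouse without normalization. Reads assigned to no gene (10.7% to 15.3% of a mouse's total) were left out. Symbols, positions and exon lengths came from GENCODE M21, which matched 55480 of 55573 gene IDs, and promoter sequences from RefSeq.

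Tests were run in edgeR 4.0.16 (R 4.3.3), whose quasi-likelihood test was applied after TMM scaling, with all 4 group means in the same fit. The study's filter, which asks for more than 20 normalized counts in 4 or more mice of any group, kept 13049 genes. The threshold was 0.01 after Benjamini-Hochberg adjustment over all of them. Counts at an unadjusted p under 0.05 are given only beside it, since 6282 of the 13049 genes had one in males and 5011 in females (edgeR, median of ratios). DESeq2 1.42.0 and limma-voom (limma 3.58.1) were alternatives, as were other scaling, filters, each sex fitted alone, a replicate block, and leaving out mice. The 2 fits without 5 mice high in Alb or 4 high in Tnmd were chosen after seeing the data. Scripts were tested on simulated data. Log2 CPM used a prior count of 1. Per-kb levels divide by the summed exon length of all transcripts, so a gene with long minor transcripts reads low.

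The genes and all lists were chosen with earlier results of these data known. The text names all 6 genes, Pdgfra, the other fibrillar collagen genes, up to 5 tested genes per list with the highest mean log2 CPM, counts of 5 or fewer in full, and the 10 genes most alike over mice. The labels do not say more of how mice relate, so p-values measure the spread between these mice. Counts set the precision: 3 counts, below which as a group mean no fold is given, were at most 0.166 CPM, far under the levels of the 6 genes.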

Additional observations from a re-analysis of the deposited data

Results flagged for a closer look

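Of 28 sets of values checked for a mouse far from the others of its group, 2 held one, where chance gives about 1 in 20. Col3a1 was at 713.8 CPM in F3, far above the other vehicle-treated females, and Col5a2 was at 6.688 CPM in M4, far below the other corticosterone-treated males. The change upon corticosterone differed between males and females for Serpinh1 (log2FC in males minus females -1.78), Pcsk5 (-1.92), Col6a1 (-1.32) and Smad4 (0.59), which passed the interaction test of edgeR among 13049 genes. That test was missed under 20 of 32 alternatives by Serpinh1, 20 by Pcsk5, 25 by Col6a1 and 23 by Smad4, with the sign kept in each. For Col3a1 the difference was -2.61 and past the same threshold except under 21 alternatives, but the gene was chosen with these values known, so its difference is a description and no support. Serpinh1, Col6a1 and Smad4 stood on lists chosen with earlier results known, so theirs are a description too.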

How the results depend on the processing

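In males, the 5 collagen calls and the negative log2FC of Col5a3 held in all 32 alternatives, some of which left out females only. No value past the threshold changed sign. In females the number of collagen genes called was 1, but 3 with DESeq2, 2 with limma-voom, and 0 with each sex fitted alone, without M8 and F10, without M8, M9, M12, F6 and F10, or without M7, M11, F7 and F11. Leaving out 1 mouse gave 0 to 3. For the interaction it was 1, but 5 with DESeq2 or limma-voom, 2 with the median of ratios, 0 without a filter, and 0 in each of those 3 fits without several mice. It was 0 to 6 without 1 mouse. Between treated males and females it was 6, but 2 without M8, M9, M12, F6 and F10. All genes called in females numbered 1748, but 561 with each sex fitted alone, 460 without M8, M9, M12, F6 and F10, 599 without M7, M11, F7 and F11, and 1004 (without F6) to 2359 (without F8) without 1 mouse. Between vehicle-treated males and females the 125 genes called became 284 with DESeq2 and 59 without M7, M11, F7 and F11. Between treated ones the 3043 became 1382 without M8 and F10, 290 without M8, M9, M12, F6 and F10, and 1885 (without F10) to 3742 (without F8) without 1 mouse. For the interaction the 90 became 896 with DESeq2, 693 with limma-voom, 10 without a filter, 4 without M8 and F10, 3 without M8, M9, M12, F6 and F10, 0 without M7, M11, F7 and F11, and 1 (without M3) to 893 (without F8) without 1 mouse. In fits with 0 collagen genes called, edgeR gave 2 to 4 of them an unadjusted p under 0.05 in females and 6 for the interaction, and the fit with 0 genes called had 3105 at that level. Among all tested genes, edgeR with the median of ratios had 5011 at that level in females and 4239 for the interaction. Another gauge moved the collagen difference against Pdgfra to -1.07 in males and -0.29 in females. The causes were not tested, except that fits without mice have fewer samples. The log2FC of Col5a2 in females was above 0 in 2 of 32 alternatives and that of Col5a3 below 0 in 1.

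Equal replicate numbers join a male and a female, so they name different mice, and the labels do not say whether they mark shared handling. Of 11 same-numbered pairs 7 had deviations correlated above 0.1 (range -0.38 to 0.48), and 4 of 11 mice correlated best with their own number. Vehicle pairs ran from 0.08 to 0.48 and corticosterone pairs from -0.38 to 0.24. The mice high in Tnmd, M7, M11, F7 and F11, share their numbers across the sexes. A shared factor by number was not tested further. With the replicate block, which only comparisons between the sexes allow, 0 collagen genes were called for the interaction, and no other count moved by over 1.5 times. At 121 or more reads per mouse, depth limited no collagen value.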
